A study of Rattus norvegicus with 36 samples.

Results

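Macrophage marker genes were followed in rat skeletal muscle after resisted contractions, in total RNA and in polysomal RNA, the fraction bound to polyribosomes and so engaged in translation. The genes, taken by gene symbol, were Lgals3, Lyz2, Cd74, C1qc, Cd68, Fcgr2b and Acp5, and 11 of the 8740 probe sets of a rat oligonucleotide array carried one of these symbols. Cd74 had 4 probe sets, C1qc had 3, and Lgals3, Lyz2, Fcgr2b and Acp5 had 1 each, while no probe set used here was named Cd68, so that the markers measured were 6 of the 4736 genes named by a probe set with a single symbol. Of the 11 probe sets, 9 were above a floor signal of 129.5 on at least 4 of 36 arrays and could be tested. The C1qc probe sets rc_AA891576_i_at and rc_AA891576_r_at were above the floor on 0 of 36 arrays and were not tested.

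The arrays formed 6 groups: muscle 6 h after resisted contractions as polysomal RNA (4 numbers in the titles, 8 arrays), the same as total RNA (4 numbers, 8 arrays), muscle 1 h after contractions as polysomal RNA (2 numbers, 4 arrays), the same as total RNA (2 numbers, 4 arrays), and muscle without named contractions in 2 control groups. One control, titled 1hr polysome (2 numbers, 4 arrays), was collected at 1 h, and its description names no polyribosomes, so its RNA fraction is unsettled. The other, the polysomal control (4 numbers, 8 arrays), is described as polyribosomal RNA collected at 1 h, and no control was collected at 6 h. Each number had 2 arrays, which were averaged on the log2 scale to 1 replicate. Same-numbered samples of the 6 h polysomal group and the polysomal control deviated together. Errors and p-values for that comparison are from a model without pairing by number, so they include spread shared by these samples. The source label names the muscle as "ta", and strain, sex and age are not given in the labels used here. Neither do the labels say whether numbers are separate animals, so the p-values measure how far these samples vary among themselves, which may be technical variation. The number of arrays limits the precision.

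Macrophages are phagocytes that live in muscle at rest and arrive in larger numbers, as blood monocytes, after damage. They clear debris by engulfing it into lysosomes, present fragments of it on MHC class II molecules and release signals that act on fibroblasts and muscle stem cells. None of the genes followed here is active in macrophages alone. Whole muscle was measured, so that more cells of a type and more RNA per cell cannot be told apart.

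Short stretches of Lyz2 and Cd74 are shown because, among the measured genes with an entry in the promoter table, these held the letters GAGGAA, the core recognised by the myeloid factor PU.1. The sequences are from RefSeq, build GRCr8, and the 250 bases before the start given in that table were searched on both strands. This start lies inside the gene as RefSeq spans it, 49 bases past the outermost start in Lyz2 and 135 bases past it in Cd74. The Lyz2 stretch is chr7:54798040-54798069 on the minus strand, and the Cd74 stretch is chr18:56527162-56527191 on the plus strand. Capitals mark GAGGAA, 46 bases before the table's start in Lyz2, and its opposite-strand form TTCCTC, 32 bases before that start in Cd74. Both matches fall inside the gene span, 3 bases past the outermost start in Lyz2 and 103 bases past it in Cd74.
Lyz2: ctgtcaggaaagGAGGAActtggaggatgc
Cd74: ggacgaatcagaTTCCTCccagtatcagct
Farther out, at chr18:56526956-56527070 on the plus strand, Cd74 holds a CCAAT box (capitals) 189 bases before the table's start and 54 bases before the outermost one. Promoters of MHC class II genes and of Cd74 are known for a CCAAT element.
Cd74 upstream: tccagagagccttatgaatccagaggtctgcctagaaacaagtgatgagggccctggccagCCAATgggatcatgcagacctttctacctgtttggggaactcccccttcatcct
GAGGAA was present in 23.3% and CCAAT in 34% of 33469 promoter windows of this length, so neither match sets these genes apart. No TATAAA (in 12.9% of windows) or TGACTCA (the AP-1 site, in 4.05%) was found in the 250 bases of either gene. The remaining measured gene with an entry in the promoter table, Acp5, held none of these letters, and Lgals3, C1qc and Fcgr2b were not in it.

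Lyz2 encodes lysozyme, the secreted enzyme with which macrophages and neutrophils break bacterial walls. In 6 h polysomal RNA its signal was 1990.5, 1165, 10475 and 7149 in numbers 1 to 4, against 1650.3, 1064, 1381 and 1465 in the polysomal control. Numbers 3 and 4 stood far above every control value, whereas numbers 1 and 2 lay within or near the control range, so the groups overlapped. The fitted log2 change was 1.40 (SE 0.550, 2.64-fold) and did not pass after adjustment over all 6707 tested probe sets (limma, Benjamini-Hochberg adjusted p = 0.641). Over numbers 1 and 2 alone the change was 0.20 and over numbers 3 and 4 alone 2.61. The split was made after the values were seen, so these changes only restate which numbers were high.

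Numbers 3 and 4 were also the higher ones in 6 h total RNA, where Lyz2 reached 2658 and 2277 in them and 1422 and 1279 in numbers 1 and 2. Same-numbered samples of the 6 h fractions were not taken as paired. At 1 h the polysomal signal was 1549 and 4079.9, the total RNA signal 1304 and 1391, and the control titled 1hr polysome had 1198 and 1097. Of the 1 h polysomal numbers, number 2 therefore carried most of the difference. A neighbouring rat gene, Lyc2, encodes a related lysozyme, and whether the probes tell the pair apart was not examined.

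Acp5 encodes tartrate-resistant acid phosphatase, a lysosomal enzyme of macrophages and osteoclasts. Its polysomal signal was 549, 511, 345 and 307 in the 6 h numbers and 631, 522, 378 and 338 in the polysomal control. The groups overlapped, and within each number the 6 h value was the lower one, by 0.03 to 0.20 on the log2 scale. The change, -0.12 (SE 0.227), did not pass in the model without pairing by number (limma adjusted p = 1). In the 1 h samples Acp5 was at 391 and 328 in polysomal RNA, at 358 and 292 in total RNA and at 212 and 171 in the control titled 1hr polysome. Both 1 h groups stood above that control without overlap, as did 12.7% of all tested probe sets for polysomal and 27.7% for total RNA. In that control Acp5 was above the floor on 3 of 4 arrays. The log2 changes were 0.91 (SE 0.320) for polysomal and 0.77 (SE 0.320) for total RNA, but neither passed in limma (adjusted p = 0.990 and 0.372). Against the polysomal control in place of the one titled 1hr polysome, these changes turned to -0.34 and -0.48. The latter also sets total against polysomal RNA.

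Lgals3 encodes galectin-3, a sugar-binding protein that macrophages make in quantity when they turn to phagocytosis. Its signal was 1499.7, 1068, 2095 and 2006 in 6 h polysomal RNA, against 695, 651, 817 and 828 in the polysomal control. Every 6 h number was above every control number, a separation that 2.64% of all tested probe sets showed in this direction. The log2 change was 1.11 (SE 0.376, 2.17-fold, 95% interval 0.31 to 1.92). It did not pass in limma in the model without pairing by number (adjusted p = 0.443). Within numbers the difference was 0.71 to 1.36. In 6 h total RNA the signal was 1019, 865, 778 and 1239, of which 778 lay below the highest polysomal control values.

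At 1 h the Lgals3 polysomal arrays of number 1 and number 2 differed widely, with signals of 517 and 2762, whereas total RNA gave 705 and 540.3 and the control titled 1hr polysome 517 and 485. The fitted change against that control was 1.26 (SE 0.532, limma adjusted p = 1). Without number 1 of the 1 h polysomal group it was 2.46 and passed (limma adjusted p = 0.00731), and without number 2 it was 0.05. The difference between 1 h polysomal and 1 h total RNA likewise was 0.95 (SE 0.532, limma adjusted p = 0.420), 2.16 without number 1 (limma adjusted p = 0.0112) and -0.26 without number 2. The beta-actin signal at its 3′ end over that at its 5′ end, a sign of RNA quality, ran from 3.59 to 4.28 in 1 h polysomal number 2, from 2.0 to 2.44 in number 1 and from 1.07 to 2.73 in the control titled 1hr polysome. The Gapdh ratio ran from 1.19 to 1.30 in number 2 and from 1.15 to 1.28 in number 1. The part of RNA quality in these values was not tested. The lone sample left in such a fit is assumed to vary like the other groups.

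**Figure D1:**
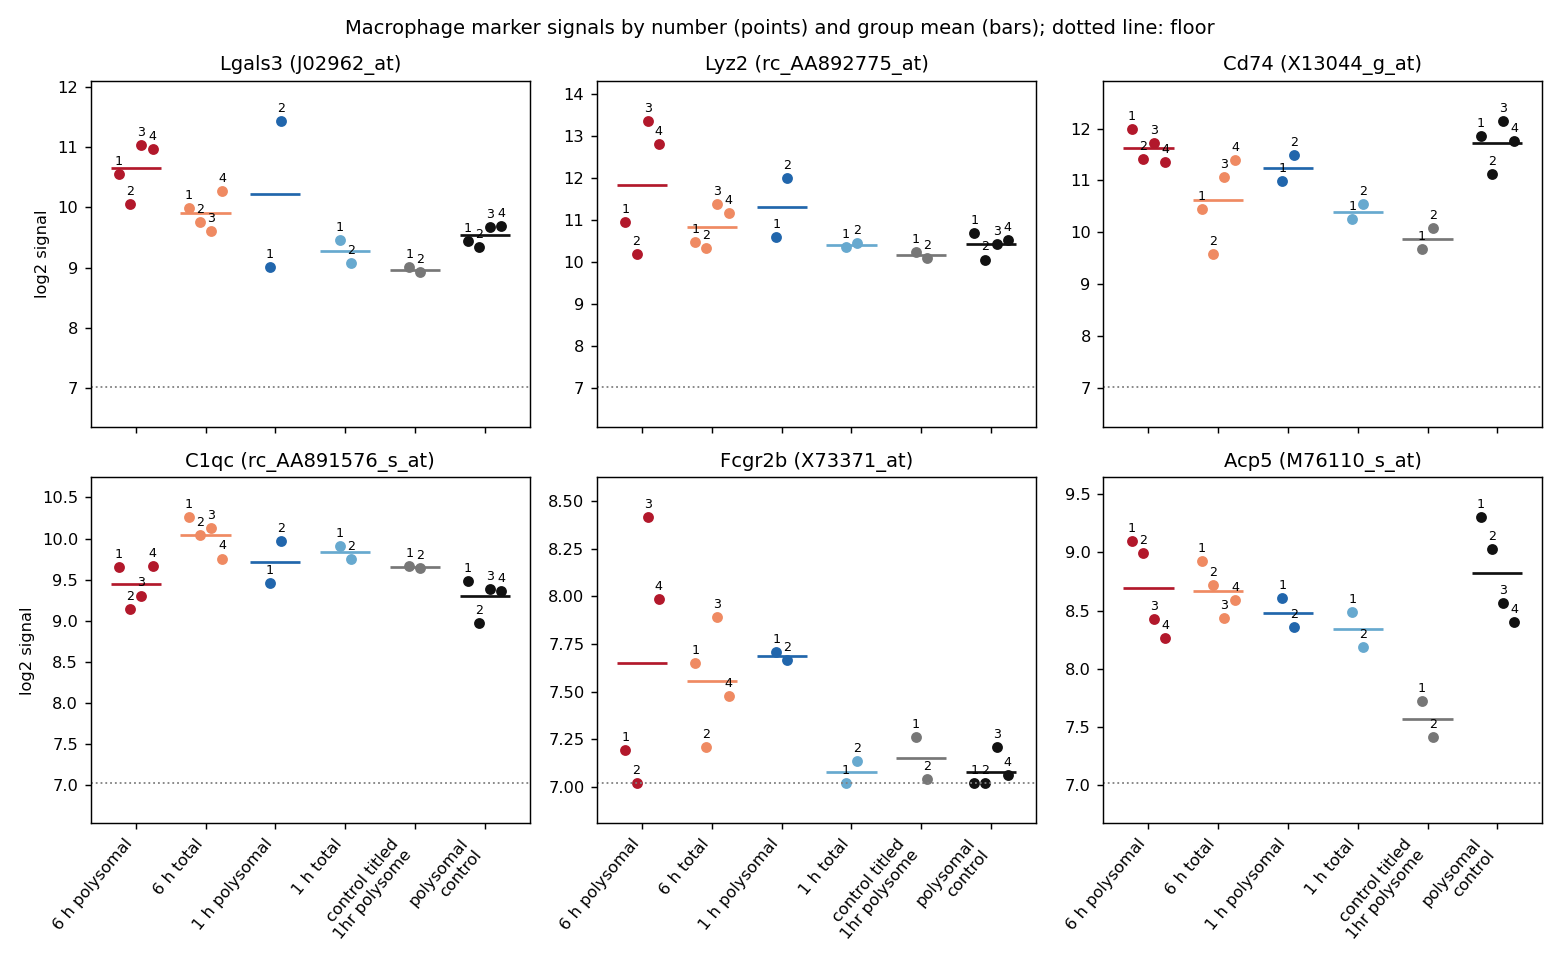
Log2 signal of 6 macrophage markers, with 1 panel a gene, 1 point for each number (mean of 2 arrays, labelled by its number) and a bar for the group mean. The dotted line is the floor, groups run from 6 h polysomal on the left to polysomal control on the right, and Lgals3 is the panel in which all 6 h polysomal points lie above all polysomal control points.

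Cd74 encodes the invariant chain, which guides MHC class II molecules through the cell. Its 4 probe sets come from 2 database entries, and each entry gave a pair of probe sets. The X13044 pair was above the floor on all 36 arrays. X13044_at gave signals of 2419, 1847, 2754 and 2219 in 6 h polysomal RNA, 1585, 971, 1383 and 1429 in 6 h total RNA, and 2492, 1687, 2458 and 2471 in the polysomal control. The 6 h polysomal values lay wholly above those of 6 h total RNA, as they did for 4.64% of all probe sets, and overlapped those of the polysomal control. Cd74 rose in 6 h polysomal relative to 6 h total RNA by this probe set, with a log2 difference of 0.79 (SE 0.191, 1.73-fold, limma adjusted p = 0.0216).

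X13044_g_at gave 4075, 2732, 3387 and 2611 in 6 h polysomal RNA, 1406, 768, 2133 and 2699.8 in 6 h total RNA, and 3711, 2238, 4530.1 and 3458 in the polysomal control. Its difference between the 6 h fractions was 1.00 (SE 0.328), with 1 total RNA value inside the polysomal range, and did not pass (limma adjusted p = 0.0717). Without 6 h total number 4 it was 1.25 and passed (limma adjusted p = 0.0198). Between samples of the same number, which were not taken as paired in the 6 h fractions, it was 1.54, 1.83, 0.67 and -0.05. By X13044_g_at the polysomal control stood above 6 h total RNA too, by 1.10 (limma adjusted p = 0.0380). In the 6 h polysomal group relative to the polysomal control, X13044_at changed by 0.02 (SE 0.191, 95% interval -0.38 to 0.43) and X13044_g_at by -0.10 (SE 0.328, 95% interval -0.80 to 0.60). Neither passed in limma (adjusted p = 1), nor did X14254cds_at, at -0.42 (SE 0.36), or X14254cds_g_at, at -0.0010 (SE 0.591).

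The X14254cds probe sets followed a different course in 6 h total RNA. X14254cds_g_at gave 1046 and 419 in numbers 1 and 2 and lay at the floor on all arrays of numbers 3 and 4, the numbers in which X13044_g_at was highest. In 6 h polysomal RNA it gave 404, 572, 450.5 and 400.5, and in the polysomal control 705, 243, 459 and 532. Its difference between the fractions, 0.63 (SE 0.591), did not pass (limma adjusted p = 0.513). It was -0.46 over numbers 1 and 2 and 1.71 over numbers 3 and 4, a split made after the values were seen. X14254cds_at was above the floor on 19 of 36 arrays and differed by 0.002 between the fractions (limma adjusted p = 1). Over the 18 numbers the X13044 pair correlated at 0.884 and the X14254cds pair at 0.675, while correlations between the pairs ran from 0.241 to 0.505. These are descriptions of probe sets read on the same arrays.

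**Figure D2:**
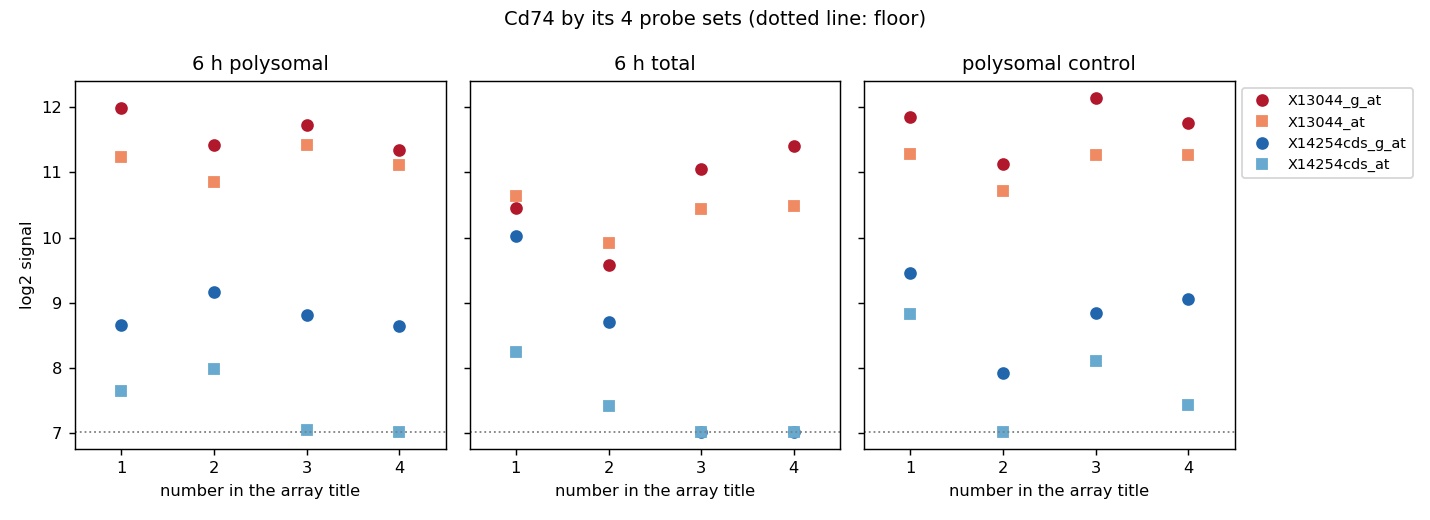
Log2 signal of the 4 Cd74 probe sets (legend) against the number in the array title, in 6 h polysomal RNA, 6 h total RNA and the polysomal control. The dotted line is the floor, and in 6 h total RNA both X14254cds probe sets lie at it in numbers 3 and 4, where X13044_g_at is at 2133 and 2699.8 on the linear scale.

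In the 1 h groups, X13044_g_at was at 2032 and 2862 in polysomal RNA, 1219 and 1486 in total RNA and 823 and 1079 in the control titled 1hr polysome. The groups did not overlap, and 12.7% of all probe sets had the 1 h polysomal values wholly above that control. The polysomal change of 1.36 against that control (SE 0.464) did not pass in limma (adjusted p = 0.990). Set against the polysomal control instead, it was -0.49. Between the 1 h fractions the Cd74 probe sets differed in direction. Polysomal minus total RNA was 0.84 for X13044_g_at and 0.14 for X13044_at, but -1.16 for X14254cds_g_at and -0.33 for X14254cds_at. None of these passed in limma (smallest adjusted p = 0.410). X14254cds_at lay at the floor on all 1 h polysomal arrays.

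C1qc encodes a chain of C1q, the complement protein that marks debris for uptake and is made mainly by macrophages. By the probe set rc_AA891576_s_at, whose suffix marks probes that may match more than 1 transcript, its signal was 808, 567, 633 and 811 in 6 h polysomal RNA, 1225, 1051, 1117 and 865 in 6 h total RNA, and 715, 504, 669 and 658 in the polysomal control. All 6 h polysomal values lay below all 6 h total values, a separation that 7.14% of all probe sets showed in this direction. C1qc was lower in 6 h polysomal than in 6 h total RNA, by 0.60 on the log2 scale (SE 0.171, 1.52-fold lower, limma adjusted p = 0.0419). The call was lost in 13 of 16 alternatives, among them the leaving out of 6 h polysomal number 2, with a change of -0.50 and a limma adjusted p of 0.124, and the limma adjusted p ran from 0.0196 to 0.269 over the alternatives. C1qc in the polysomal control also lay below 6 h total RNA, with a difference of -0.74 (limma adjusted p = 0.0116). In 6 h polysomal RNA relative to the polysomal control C1qc changed by 0.14 (SE 0.171), which did not pass (limma adjusted p = 1). At 1 h its signal was 706 and 1002 in polysomal RNA, 959.8 and 864 in total RNA and 811 and 800.1 in the control titled 1hr polysome.

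C1qb, which encodes another chain of C1q, is no marker in the set, but stands beside C1qc. It averaged 1601 in 6 h polysomal RNA and 1245 in 6 h total RNA (geometric means of 4 numbers), a difference of 0.36 (SE 0.263) that did not pass (limma adjusted p = 0.392) and ran opposite to that of C1qc.

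Fcgr2b encodes the inhibitory Fc receptor, which restrains macrophages and B cells that bind antibody complexes. It was above the floor on 22 of 36 arrays. In 6 h polysomal RNA it was at 146, at the floor, at 342 and at 253 in numbers 1 to 4, against the floor, the floor, 148 and 134 in the polysomal control. Numbers 3 and 4 again were the high ones, while for Acp5 numbers 1 and 2 were the higher ones in both of these groups. These pairs of numbers also differ in the form of their titles and in part in the Gapdh ratio, a sign of RNA quality. In the polysomal control this ratio was 0.0742 to 0.511 and 0.0374 to 0.363 in numbers 1 and 2. It was 0.482 to 0.821 and 1.05 to 1.19 in numbers 3 and 4. In 6 h polysomal RNA it was 0.416 to 1.30, 0.0702 to 0.561, 0.909 to 1.16 and 0.956 to 0.962 in numbers 1 to 4. The part of titles and ratios in these values was not tested. The Fcgr2b change of 0.58 (SE 0.250) did not pass in limma without pairing by number (adjusted p = 0.773). It was 0.09 over numbers 1 and 2 and 1.07 over numbers 3 and 4, a split made after the values were seen. In 6 h total RNA Fcgr2b was at 201, 148, 238 and 178, so that it differed from polysomal RNA by 0.10 (SE 0.250, limma adjusted p = 0.828). In 1 h polysomal RNA it was at 209 and 203, against 154 and 132 in the control titled 1hr polysome, a change of 0.54 (SE 0.353, limma adjusted p = 1).

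Lyz2 and Fcgr2b followed each other over the 18 numbers, with a Pearson correlation of 0.861 and a Spearman correlation of 0.715, and Lgals3 and Lyz2 with 0.792 and 0.643. Acp5 did not share this pattern, with correlations of -0.07 to Lyz2 and -0.12 to Fcgr2b. C1qc correlated at 0.07 with Lyz2 and at -0.48 with Cd74 by X13044_at. These values are descriptions over numbers that share arrays and groups.

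**Figure D3:**
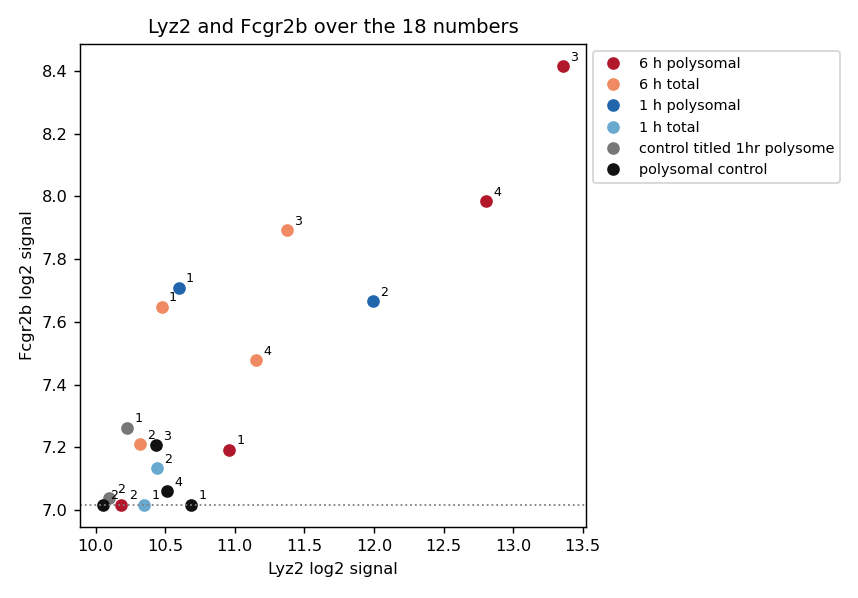
Log2 signal of Fcgr2b against that of Lyz2, 1 point for each of the 18 numbers, coloured by group and labelled by number. The dotted line is the floor for Fcgr2b, and 6 h polysomal numbers 3 and 4 are the points at the upper right.

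Across many probe sets, the 6 h polysomal group differed from the polysomal control at 0.343% of those tested (23 of 6707), and none of the 9 macrophage marker probe sets was among them. Without single numbers this count ran from 7, without 6 h polysomal number 4, to 38, without 6 h polysomal number 2. Of the 9 marker probe sets, 4 of them of Cd74, 5 had a change above 0, and their median was 0.02 against -0.03 for all probe sets. By gene, with the brightest tested probe set of each, 4 of 6 lay above 0. The median by gene was 0.36 against -0.04 for all genes. The marker signals summed over 6 genes, each by its brightest probe set, ran from 6172 to 17278 in 6 h polysomal RNA and from 5108 to 7923 in the polysomal control. Lyz2 alone gave 10475 of the highest sum, and without Lyz2 the sums overlapped, at 5007 to 7078 in 6 h polysomal RNA and 4044 to 6542 in the polysomal control. Summed neutrophil markers, of which Lyz2 is not one here, ran from 1412 to 2740 in 6 h polysomal RNA and from 1444 to 2302 in the polysomal control. Their part in the marker values was not tested.

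Between the 6 h fractions 8.77% of probe sets were called (588 of 6707), 3.77% higher in polysomal RNA and 4.99% lower. Of the 9 marker probe sets 1 was called higher, Cd74 by X13044_at, and 1 lower, C1qc. Their median difference was 0.63, and 8 of 9 lay above 0, against a median of -0.16 and 32.7% above 0 for all probe sets. Cd74 gave 4 of the 9. By gene, 5 of 6 lay above 0, with a median of 0.42 against -0.14 for all genes. Relative to the median of all probe sets, X13044_at differed by 0.95 and C1qc by -0.44. With quantile normalization the median of all probe sets was -0.04, and calls split into 323 higher and 169 lower, against 253 and 335 with the deposited scaling. With arrays scaled to their 75th percentile the split was 331 and 157. X13044_at passed under both scalings (limma adjusted p = 0.0339 and 0.0124) and C1qc under neither (limma adjusted p = 0.0742 and 0.102). X13044_at did not pass without 6 h total number 2 (0.64, limma adjusted p = 0.0557) or without 6 h polysomal number 3 (0.70, limma adjusted p = 0.0695), and over its 16 alternatives the limma adjusted p ran from 0.00178 to 0.119.

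The beta-actin 3′ over 5′ ratio ran from 2.54 to 4.48 in 6 h polysomal RNA, from 1.01 to 11.5 in 6 h total RNA and from 1.58 to 3.88 in the polysomal control. In 6 h total RNA, number 3 held the values above 9, and the other numbers ran up to 1.58, below all 6 h polysomal values. The Gapdh ratio ran from 0.0702 to 1.30 in 6 h polysomal RNA and, outside number 3, from 0.538 to 1.09 in 6 h total RNA, so that by this ratio those samples overlapped. In number 3 of 6 h total RNA it was 9.73 to 11.4, and in the polysomal control 0.0374 to 1.19. The part of these ratios in the fraction differences was not tested. Without 6 h total number 3, the Cd74 difference by X13044_at was 0.81 and that of C1qc -0.57.

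Lgals3 and Lyz2 were higher in 6 h polysomal than in 6 h total RNA on average, by 0.75 (SE 0.376) and 0.99 (SE 0.550), and did not pass in limma (adjusted p = 0.218 and 0.259). Acp5 differed by 0.03 (SE 0.227, limma adjusted p = 0.951).

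In 1 h polysomal RNA 0% of probe sets passed against the control titled 1hr polysome (0 of 6707 by limma, with 299 at an unadjusted p under 0.05). Of the 9 marker probe sets 6 had both 1 h values above both control values, a separation that 12.7% of all probe sets showed in this direction. For Lgals3 the lower 1 h value stood level with the higher control value to within rounding. The median change of the 9 was 0.74 against -0.03 for all probe sets, and by gene it was 1.02 against -0.02 for all genes. In 1 h total RNA 0.0745% passed against the same control (5 of 6707), no marker among them. The median change of the 9 marker probe sets was 0.33 against 0.03, and by gene it was 0.27 against 0.01. Here 8 of 9 did not overlap and were higher, as did 27.7% of all probe sets in this direction. Against the polysomal control 6 of these 8 were lower in 1 h total RNA, by values from -0.03 for Lyz2 to -1.33 for X13044_g_at, with Lgals3 at -0.27, Acp5 at -0.48, X14254cds_at at -0.50 and X13044_at at -0.53. None of the 6 passed there in limma (smallest adjusted p = 0.0542). That control is polysomal RNA, so fraction and contractions cannot be told apart in this comparison. Against the control titled 1hr polysome, the largest of the 8 differences was that of Cd74 by X14254cds_g_at, at 1.91 (SE 0.836, limma adjusted p = 0.415). In that control this probe set was above the floor on 1 of 4 arrays. Against the polysomal control it differed by 0.28.

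The control titled 1hr polysome had lower values than the polysomal control for several markers, which bears on both 1 h comparisons, since they share it. X13044_g_at differed by -1.84 (SE 0.402), X13044_at by -0.88 (SE 0.234), X14254cds_g_at by -1.62 (SE 0.724) and Acp5 by -1.25 (SE 0.278). These 4 probe sets did not overlap between the controls, nor did Lgals3, at -0.57 (SE 0.461), a separation that 6.89% of all probe sets showed in this direction. None passed by limma (adjusted p = 0.316 for X13044_g_at and for Acp5), and neither did any other probe set (0% of 6707, with 367 at an unadjusted p under 0.05). With 36 arrays and the number as a random block, 15 probe sets passed, X13044_g_at and Acp5 among them (limma adjusted p = 0.00359 and 0.0398). That fit takes the 2 arrays of a number as separate observations, with a fitted correlation of 0.314. The labels do not say whether they are separate samples, so its p-values may be too small. C1qc ran the other way, at 0.35 (SE 0.209). Summed signals of 8 fibroblast markers ran from 22429 to 28061 in the control titled 1hr polysome and from 33689 to 78942 in the polysomal control, and all 8 lay below 0 in this difference (median -0.81, against 0.02 for all genes). All 10 muscle fibre markers lay above 0 (median 0.72). The part of these lists in the marker values was not tested.

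**Figure D4:**
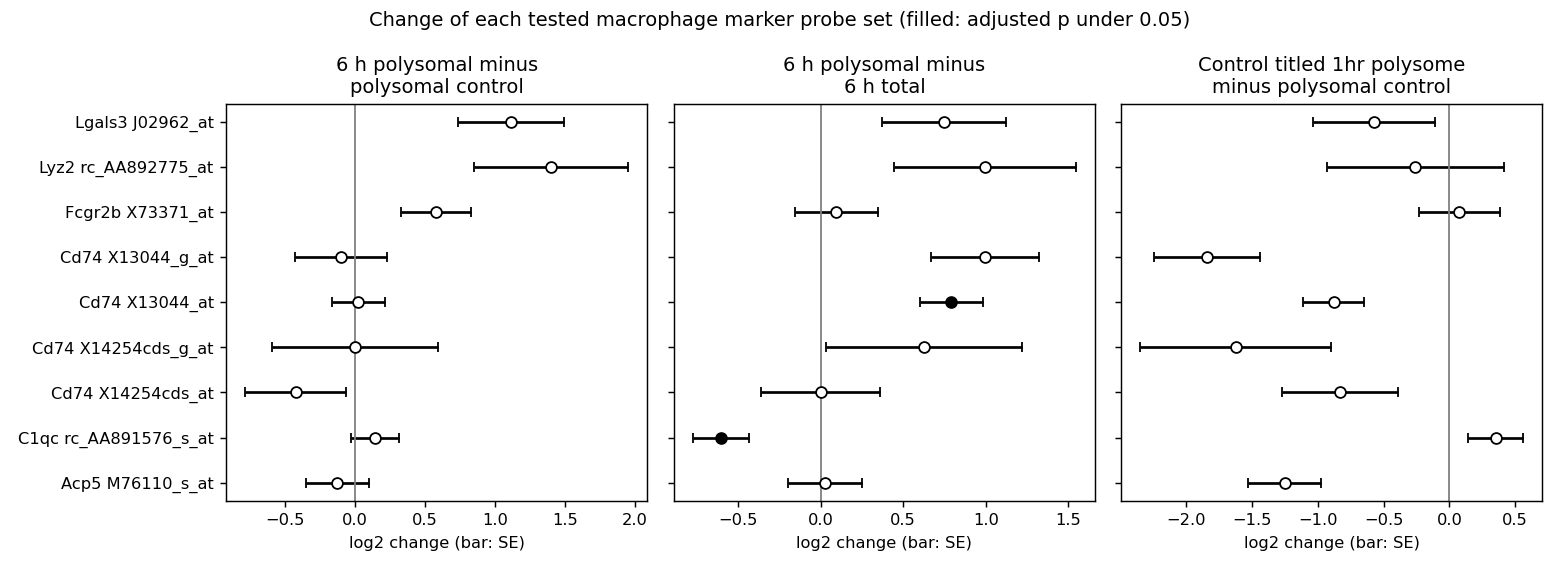
Log2 change of the 9 tested marker probe sets in 6 h polysomal RNA minus polysomal control, 6 h polysomal minus 6 h total RNA, and the control titled 1hr polysome minus polysomal control. Points are fitted changes, bars are standard errors, and the filled points, at 0.79 for Cd74 (X13044_at) and -0.60 for C1qc, have a limma adjusted p under 0.05.

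Polysomal against total RNA at 1 h gave 0.388% called (26 of 6707), 6 h against 1 h in total RNA gave 0.0596% (4 of 6707) and 6 h against 1 h in polysomal RNA gave 0% (0 of 6707 by limma, with 366 at an unadjusted p under 0.05). No marker was called in any of these. Between 6 h and 1 h total RNA, all 4 Lgals3 values at 6 h lay above both at 1 h, as 7.25% of all probe sets did, with a log2 change of 0.64 (SE 0.461, limma adjusted p = 0.714). The polysomal change at 6 h minus that at 1 h, each against its own control, passed for no probe set (0% of 6707 by limma, with 173 at an unadjusted p under 0.05). It was -1.46 (SE 0.568) for X13044_g_at and -1.04 (SE 0.392) for Acp5, which are among the probe sets in which the controls differed.

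In the order of group means, Lgals3 and Lyz2 were highest in 6 h polysomal RNA, followed by 1 h polysomal and 6 h total RNA, and lowest in the control titled 1hr polysome. Cd74 by X13044_g_at and Acp5 were highest in the polysomal control, followed by 6 h polysomal RNA, and lowest in the control titled 1hr polysome. C1qc was highest in 6 h total RNA and lowest in the polysomal control, and Fcgr2b highest in 1 h polysomal RNA and lowest in the polysomal control. Of 45 pairs of neighbours in these orders over the tested probe sets, none passed after adjustment. The smallest limma adjusted p was 0.372, for Acp5 between 1 h total RNA and the control titled 1hr polysome, which did not overlap and were the 1 pair with an unadjusted p under 0.05 (0.0302).

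Other genes of the macrophage programme were taken from lists with counts over 3903 tested genes, of which 0.384% were called between 6 h polysomal RNA and polysomal control and 9.38% between the 6 h fractions. In the first of these comparisons Cd44, a hyaluronan receptor of leukocytes and many other cells, rose by 1.96 (SE 0.324, limma adjusted p = 0.0154), as 1 of 24 tested genes of myeloid surface and signalling. It passed in 9 of 17 alternatives, and not without 6 h polysomal number 1 or 4 or polysomal control number 3 or 4 (limma adjusted p = 0.0550, 0.0747, 0.0712 and 0.0645). None passed of 3 phagocyte and Fc receptors, 6 complement genes, 9 genes of MHC class II and its loading, 15 lysosomal genes or 7 monocyte attractants and growth factors. Medians of these lists ran from -0.09, for complement, to 0.29, for the receptors, against -0.04 for all genes. Csf1r, the receptor for the macrophage growth factor, was on the array but not above the floor often enough to be tested.

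Between the 6 h fractions C1r, the protease that C1q activates, rose by 1.69 in polysomal relative to total RNA (SE 0.231, limma adjusted p = 0.00167), to 3513 against 1088 as geometric means. Of the myeloid genes Coro1a, an actin-binding protein of leukocytes, rose by 1.45 (limma adjusted p = 0.0142), Cd63, a tetraspanin of lysosomes, by 1.22 (limma adjusted p = 0.0436), and Cd48, an adhesion ligand of leukocytes, fell by 1.08 (limma adjusted p = 0.0450). Of the lysosomal genes Ctsk, a collagen-cleaving cathepsin shared with osteoclasts and fibroblasts, fell by 0.80 (limma adjusted p = 0.0153). The genes of MHC class II, which Cd74 escorts, and of its loading had 0 of 9 called. Their median was -0.12, with 3 above 0, against -0.14 for all genes. RT1-Da, an MHC class II chain, averaged 2235 in 6 h polysomal and 2787 in 6 h total RNA.

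Markers of other cells gave the following between the 6 h fractions. Of 8 fibroblast markers 1 was called lower, Bgn, at -0.71 (limma adjusted p = 0.0216). Of 5 red cell markers 1 was called lower, Slc4a1, at -0.77 (limma adjusted p = 0.00830), and of 4 adipocyte markers 1 was called higher, Fabp4, at 1.39 (limma adjusted p = 0.0378). Fabp4 is also made by macrophages and endothelium. Of 16 alternatives, C1r passed in 16, Slc4a1 in 15, Coro1a in 14, Ctsk in 13, Bgn in 11, Fabp4 in 6, and Cd63 and Cd48 in 4 each. No tested marker of neutrophils (8), lymphocytes (8), mast cells (5), endothelium (4) or muscle fibres (10) was called. Cd3d, Cd2 and Cd28 of T cells and the mast cell proteases Mcpt1, Mcpt4 and Mcpt9 were on the array and above the floor on fewer than 4 arrays, so they were not tested.

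Ccl2, the main attractant of monocytes, averaged 1204 in 6 h polysomal RNA, with numbers from 173 to 5692, and 191 in the polysomal control, with numbers from 144 to 308. Its change of 2.66 (SE 0.835) did not pass (limma adjusted p = 0.342). At 1 h the Ccl2 change against the control titled 1hr polysome was 2.69 (SE 1.18) in polysomal and 1.42 (SE 1.18) in total RNA. Neither passed in limma. Between 6 h and 1 h polysomal RNA Ccl2 differed by 0.12 (SE 1.02).

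By Pearson correlation of log2 signal over the 18 numbers, among 3903 genes, Lgals3 was most like Capg (0.884), an actin-capping protein of macrophages, Timp1 (0.871), an inhibitor of matrix proteases, and Serp1 (0.845), a protein of the endoplasmic reticulum. Lyz2 was most like Timp1 (0.894), the matrix proteoglycan Vcan (0.888) and Pdlim4 (0.867), and Fcgr2b most like Lyz2 (0.861), Ccl2 (0.782) and Vcan (0.759). Cd74, by its brightest probe set, was most like Mgp (0.859), a mineralisation inhibitor, Tspo (0.845) and Plekho1 (0.799). C1qc was most like Casp1 (0.881), the inflammatory caspase, Grk2 (0.870) and Lrch4 (0.851), and Acp5 most like Pcolce (0.765) and Mmp14 (0.758), of collagen processing, and Phrf1 (0.747). The mean of the standardised markers was most like Timp1 (0.865), Clec10a (0.813), Capg (0.810), Twf1 (0.799) and Mmp2 (0.794). Clec10a is a lectin of macrophages. Its level was 421 in 6 h polysomal RNA and 284 in the polysomal control (geometric means), and Timp1 was at 2432 and 1059 in the same groups.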

How the data were processed

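RNA was hybridised to 36 one-colour arrays, and the values used were linear intensity signals, deposited by the authors as 1 table and already scaled (2% trimmed means of 801.0 to 801.9), with software and build not given in the sources used here. After 59 control probe sets were left out, values below the 40th percentile (129.5) were set to it and log2 was taken. Tests ran on the 6707 of 8740 probe sets that exceeded this floor on 4 or more arrays. Averaging both arrays of each number left 18 replicates. Arrays of a number correlated at 0.897 to 0.981, and none was a copy of another. Contrasts of 1 model over the 6 groups, without covariates, were tested with limma 3.58.1 in R 4.3.3, two-sided, with Benjamini-Hochberg adjustment and a threshold of 0.05. The procedure was tested on simulated data. Symbols came from the platform annotation, updated through Entrez identifiers with RefSeq (GRCr8): there were 7006 probe sets with a single symbol, which could be named, 308 with more and 1426 without any.

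Numbers 1 to 4 of the 6 h polysomal group and the polysomal control deviated together (correlations of 0.456, 0.538, 0.444 and 0.431), and were taken as paired from the data. The errors, intervals and p-values given for this comparison are those of the model without a block by number. The fit with the replicate block is an alternative. That block ties the same numbers over all 6 groups, so no fit paired these 2 groups alone. Numbers of the 6 h fractions were not taken as paired (0.073, 0.248, 0.162 and 0.218). Between the 1 h groups there were 2 pairs. Named were every probe set of the markers, called genes of each list, Ccl2, and the 3 genes most like each marker or 5 most like their mean. Of the 3 brightest genes of each list, which the naming rule also takes, only those called or set beside a marker are given. Csf1r and other genes too dim to test were named after their values were seen, and the CCAAT motif was added after the others. Markers and lists were chosen with earlier results of these data known. Alternatives covered scaling, floor, filter, blocks, the other control and single numbers left out. Numbers 1 and 2, and numbers 3 and 4, of the 6 h set were compared separately after the data were seen.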

Additional observations from a re-analysis of the deposited data

Results flagged for a closer look

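Of 27 sets of 4 numbers (each tested marker probe set in each group of 4), 1 held a number that stood apart from the other 3 by Dixon's ratio. Cd74 by X13044_at was at 1687 in number 2 of the polysomal control, against 2458 to 2492 in the other numbers, a gap of 0.965 of the whole range, above Dixon's 95% critical value. Chance flags about 1 in 20 such sets. Without this number the change in 6 h polysomal RNA against the polysomal control was -0.11, against 0.02 with it. Number 2 was also the lowest in 6 h polysomal RNA, at 1847, and in 6 h total RNA, at 971.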

How the results depend on the processing

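Over 66 changes of markers and listed genes, 905 alternative values were computed: 768 kept direction and side of the threshold, 70 no longer passed, 11 newly passed and 56 changed sign. The cause of these shifts was not tested.

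Counts of called probe sets moved as follows. For 6 h polysomal RNA against the polysomal control (23), they were 8 with no filter on low values, 106 with 36 arrays and the number as a random block, 1 over numbers 1 and 2, 0 over numbers 3 and 4 (limma), and 7 to 38 with single numbers left out. With the random block Lgals3 passed (limma adjusted p = 0.0246). The random block takes the 2 arrays of a number as separate observations, so its p-values may be too small and its counts too high. With the replicate block, paired by number, 33 probe sets were called and no call of a marker changed there. For 1 h polysomal RNA against the control titled 1hr polysome (0), they were 4 with the random block and 0 to 46 with single numbers left out, 46 being without 1 h polysomal number 1 and 2 without number 2. For 1 h total RNA against that control (5), they were 0 with the floor at the 20th percentile, 10 with no filter and 113 with the random block. They were 28 with the replicate block and 0 to 19 with single numbers left out. Against the other control, which is polysomal RNA and so differs in fraction as well, 564 were called. For the 6 h fractions (588), they were 390 with no filter, 1086 over numbers 1 and 2, 73 over numbers 3 and 4, and 247 (without 6 h polysomal number 2) to 1099 (without 6 h total number 4). For the 1 h fractions (26), they were 9 with the lower floor, 364 with the random block, 206 with the replicate block and 1 to 85 with single numbers left out. For 6 h against 1 h total RNA (4), they were 0 with the lower floor, 11 with no filter, 20 with the random block, 0 with the replicate block and 1 to 15 with single numbers left out. For 6 h against 1 h polysomal RNA (0), they were 6 with the random block, 19 with the replicate block and 0 to 27 with single numbers left out. Between the controls (0), 15 passed with the random block and 4 with the replicate block, Acp5 among them at -1.53 (limma adjusted p = 0.00430). For the 6 h minus the 1 h polysomal change (0), they were 0 to 17, 17 being without 1 h polysomal number 1. Same-numbered samples of these other groups were not shown to be paired.

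Signs turned as follows, where 1 h total RNA against the other, polysomal control also differs in RNA fraction. Against the other control, 6 h polysomal RNA differed by 1.13 for Acp5, -0.21 for C1qc, 1.74 for X13044_g_at, 0.41 for X14254cds_at and 1.62 for X14254cds_g_at, 1 h polysomal RNA by -0.34 for Acp5, -0.39 for X13044_at, -0.49 for X13044_g_at, -0.83 for X14254cds_at and -0.88 for X14254cds_g_at, and 1 h total RNA by -0.48 for Acp5, -0.27 for Lgals3, -0.028 for Lyz2, 0.00014 for Fcgr2b, -0.53 for X13044_at, -1.33 for X13044_g_at and -0.50 for X14254cds_at. In 6 h polysomal RNA against the polysomal control, X14254cds_g_at changed by 0.015 with quantile normalization and 0.028 with 75th percentile scaling. Over numbers 1 and 2, X13044_g_at changed by 0.21 and X14254cds_g_at by 0.22 in 6 h polysomal RNA against the polysomal control, and between the 6 h fractions Fcgr2b differed by -0.32, X14254cds_at by -0.0076 and X14254cds_g_at by -0.46. Over numbers 3 and 4 Acp5 differed by -0.17 between the fractions, and with the lower floor Fcgr2b by -0.00067. With the lower floor X14254cds_at changed by -0.12 in 1 h polysomal RNA. With the replicate block Lyz2 differed by 0.32 between the controls. With single numbers left out, the 6 h polysomal change ran from -0.27 to 0.035 for Acp5, from -0.11 to 0.13 for X13044_at, from -0.30 to 0.041 for X13044_g_at and from -0.30 to 0.21 for X14254cds_g_at. The 1 h total change ran from -0.19 to 0.037 for Fcgr2b. The 6 h fraction difference ran from -0.11 to 0.17 for Acp5, from -0.16 to 0.31 for Fcgr2b and from -0.19 to 0.27 for X14254cds_at. The 1 h polysomal change ran from -0.19 to 0.31 for C1qc and from -0.18 to 1.67 for X14254cds_g_at. Lgals3 ran from -0.26 to 2.16 between the 1 h fractions, X14254cds_g_at from -0.048 to 1.80 between 6 h and 1 h polysomal RNA, and Fcgr2b from -0.037 to 0.19 between the controls. Signals near the floor limit Fcgr2b and the X14254cds pair most.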
